A study of Mus musculus with 16 samples.

Results

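The skeletal muscle lineage regulators Myod1, Myf5, Myf6, Myog, Pax3 and Pax7 were described in mouse fibroblasts through the methylation of their CpGs. A CpG belonged to a gene if it lay between 2 kb upstream of the gene start and the gene end in GENCODE M21 (mm10, also named GRCm38). Of 1203687 CpGs that had 10 or more reads in each of the 16 libraries, 449 did so: 212 in Pax7, 131 in Pax3, 88 in Myod1, 17 in Myog, 1 in Myf6 and 0 in Myf5. The libraries came from target capture bisulfite sequencing (tcBS-seq), in which chosen DNA is pulled out with RNA probes and unmethylated cytosines are converted. MEF-1 and MEF-2 are parental lines of embryonic fibroblasts from sibling C57BL/6J embryos at E13.5, each immortalised by serial passage through crisis and sequenced once. Each gave 7 clonal lines (numbered 1 to 7), and every clonal line was grown from 1 sorted cell, so a parental line is a mixture of cells and a clonal line is 1 clone. A parental line and its clonal lines are called a family. No line was treated or genetically altered according to the labels. The study's methods give MEF-1 as male and MEF-2 as female, so embryo, sex and culture history cannot be told apart in a comparison of the families.

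Pax3 and Pax7 are paired-box transcription factors that mark muscle progenitors, and Pax7 is best known from the satellite cells of adult muscle. Myf5 and Myod1 are the basic helix-loop-helix factors that commit cells to the muscle fate, while Myog and Myf6 act later, when myoblasts differentiate. They bind E-boxes in the control regions of muscle genes. Fibroblasts do not normally use this programme, and forced expression of Myod1 is known to convert fibroblasts to muscle-like cells. A CpG island is a stretch rich in CpGs that is usually unmethylated at gene starts, and the CpGs outside islands are called flanks here.

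Stretches that hold the runs of called CpGs and some of the CpGs named below are shown first, with each measured CpG in capitals. All are written 5′ to 3′ on the strand of the gene, and distances count from the gene start in GENCODE, whose first base is 0. The Pax7 stretch at chr4:139833984-139834252 (GRCm38, minus strand) holds all 10 measured CpGs upstream of Pax7, from -713 to -466, and lies just outside the island at the gene start. The Pax3 stretch at chr1:78197546-78197596 (minus strand) lies upstream of Pax3 and holds 4 CpGs from -441 to -413, of which 3 were called, all in the other direction. The Myog promoter at chr1:134289754-134290053 (plus strand) is from the RefSeq promoter table for GRCm38 and holds the CpGs at -55, 22 and 60. The Pax3 exon 2 stretch at chr1:78195253-78195341 (minus strand) and the Pax7 intron 4 stretch at chr4:139821845-139821909 (minus strand) hold runs of neighbouring CpGs that were higher in MEF-2. The Myod1 stretch at chr7:46376991-46377052 (plus strand) lies in coding exon 1 and holds the CpG at 547, a large difference at a single CpG, among 8 neighbours that were not called.
Pax7 upstream: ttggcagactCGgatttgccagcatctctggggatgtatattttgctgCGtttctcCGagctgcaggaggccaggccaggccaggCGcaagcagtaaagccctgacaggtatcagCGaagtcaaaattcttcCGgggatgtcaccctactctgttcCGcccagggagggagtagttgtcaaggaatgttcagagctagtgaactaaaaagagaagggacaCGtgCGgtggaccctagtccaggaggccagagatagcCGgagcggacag
Pax3 upstream: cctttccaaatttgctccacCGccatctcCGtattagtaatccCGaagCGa
Myog promoter: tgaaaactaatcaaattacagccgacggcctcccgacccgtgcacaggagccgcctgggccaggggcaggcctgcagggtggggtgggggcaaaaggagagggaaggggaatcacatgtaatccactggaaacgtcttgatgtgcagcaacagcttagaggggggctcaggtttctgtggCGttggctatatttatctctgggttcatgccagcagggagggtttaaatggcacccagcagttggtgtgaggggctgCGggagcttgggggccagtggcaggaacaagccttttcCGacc
Pax3 exon 2: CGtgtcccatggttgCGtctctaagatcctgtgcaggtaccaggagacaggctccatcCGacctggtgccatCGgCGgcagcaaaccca
Pax7 intron 4: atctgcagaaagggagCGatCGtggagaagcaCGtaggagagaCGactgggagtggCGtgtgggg
Myod1 exon 1: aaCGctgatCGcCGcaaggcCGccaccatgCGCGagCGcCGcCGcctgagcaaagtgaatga
RefSeq's promoter table matched 3 of the 6 genes (Myf5, Myog and Pax7). The E-box letters CANNTG, which read alike on both strands when the central bases are left free, occurred 2 times in the Myog promoter and 0 times in those of Myf5 and Pax7. Of 32851 promoters of the same length in the table, 72.3% held at least 1 match. RefSeq's Pax7 promoter (chr4:139832919-139833218) lies downstream of the GENCODE start at chr4:139833528. The Pax7 upstream stretch printed above is thus another region, and it held 1 match in its 269 bases.

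A CpG's level was the methylated part of its reads in percent, and that of a gene was the mean over its CpGs. Libraries held from 59243669 to 90633091 calls, and a CpG of these genes was covered by a median of 29.0 reads per library (10 to 130), against 32.0 over the whole table. The families were compared by a quasi-binomial logistic model of the methylated and unmethylated reads of 7 against 7 clonal lines, with p adjusted over all CpGs or all protein-coding genes of the table. The lines of a family share 1 embryo and 1 culture, so p-values measure the spread between clones of that culture. As a check of the label, the islands of 6 fibroblast genes had at least 5 measured CpGs, with medians of 1.81% (MEF-1) and 1.48% (MEF-2), but Pdgfra was at 40.9 and 29.4% and Prrx1 at 10.6 and 7.21%. Thy1 (93.5 and 94.8%) and Postn (96.5 and 94.1%), which had no measured island, were highly methylated, so the check was mixed. Methylation alone does not show that a gene is used. Within 10 Mb of Myog and of Pax3, coverage was shifted by more than 0.1 of the usual value in MEF-1 lines 5 and 7, and around Myod1 in MEF-1 lines 1, 3 and 7. Around Myf5 and Myf6 it was shifted in MEF-2 line 4, and around Pax7 in no line. Without the shifted lines the window difference described below was 16.9 points for Myog, 3.95 points for Pax3 and -0.786 points for Myod1 (MEF-1 minus MEF-2), with the same calls.

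Across the genes, Myod1 and Pax7 were mostly hypomethylated, Pax3 was low to intermediate and Myog was largely methylated. The Myog window had a level of 81.4% ± 2.74 in the MEF-1 clonal lines and 64.3% ± 1.70 in the MEF-2 clonal lines (SD, n = 7 each). Values for Myog ran from 78.5% over a median of 80.7% to 85.6% in MEF-1 and from 61.0% over 64.9% to 65.8% in MEF-2, so that the families did not overlap. Among all protein-coding genes with at least 5 CpGs, median levels were 35.1% for MEF-1 and 33.4% for MEF-2. These medians join islands and flanks. By zone they were 7.43 and 7.36% for islands and 58.9 and 56.2% for flanks (MEF-1 and MEF-2). The islands of Myod1 were at 11.9 and 13.6%, those of Pax3 at 23.3 and 19.3% and those of Pax7 at 7.13 and 9.43%. All Myog CpGs lay in flanks. Between the families 44.6% of genes were called (29.1% of genes higher in MEF-1 and 15.5% higher in MEF-2). Of the 4 muscle regulators with enough CpGs for the gene test, 3 were called (Myog, Pax3 and Pax7), all higher in MEF-1. The Myog difference was 17.2 points (adjusted p = 8e-06 in the quasi-binomial model). The exact two-sided permutation p was 0.000583, the smallest that 7 against 7 lines can give. In size the Myog difference exceeded that of 96.7% of genes by window, and of 93.7% by flank. It was carried by 4 of the 17 CpGs, which had a mean difference of 70.1 points, while the other 13 had a mean of 0.90 (-24.9 to 34.1) and were not called. Pax3 reached 29.3% ± 1.73 in MEF-1 and 24.7% ± 1.55 in MEF-2 (adjusted p = 0.000619 in the quasi-binomial model). Its lines did not overlap (26.8 to 32.0% against 22.3 to 26.7%), but only just. The nearest lines, at 26.85 and 26.68%, were closer than the SD of 0.54 points that read counting gives 1 line. How often the lines of the families overlap in windows, islands or flanks of other genes was not counted. Pax7 was at 16.2% ± 0.95 and 14.0% ± 1.08, with overlapping lines and an adjusted p of 0.0280 in the quasi-binomial model. This call was lost in 8 of the alternative settings described at the end. The unadjusted exact two-sided permutation p for Pax7 was 0.00117. Its 10 upstream CpGs were at 47.4 and 3.94%, its 20 CpGs in coding exons at 5.57 and 3.17% and its 182 intronic CpGs at 15.7% in both families. Myod1 was at 12.6% ± 2.30 and 13.6% ± 2.07, and its lines overlapped (9.87 to 16.8% against 10.3 to 16.7%; adjusted p = 0.648 in the quasi-binomial model).

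**Figure D1:**
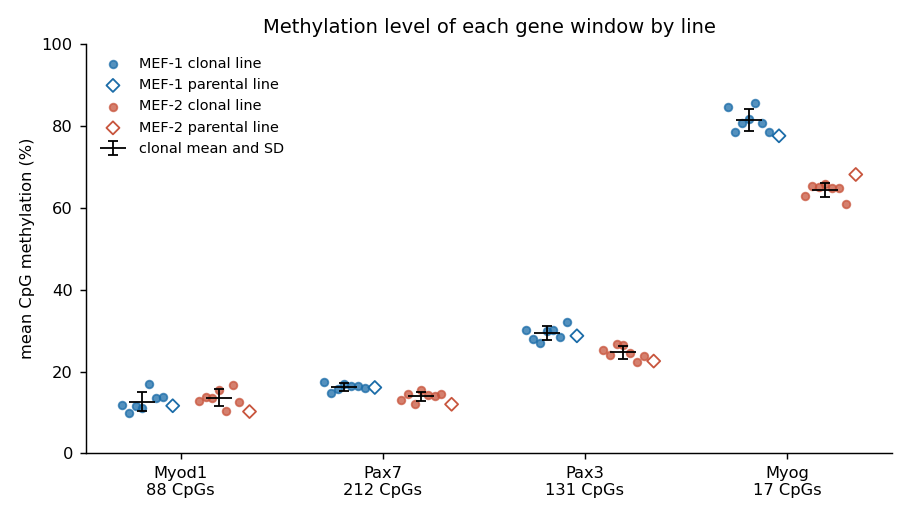
Mean CpG methylation (%) of each gene window (2 kb upstream to the gene end) in every library; filled points are clonal lines, open diamonds the parental lines, and bars the clonal mean and SD (n = 7). The Myog lines of MEF-1 (78.5 to 85.6%) lie above all those of MEF-2 (61.0 to 65.8%), whereas the Myod1 lines of the families overlap.

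At the level of single CpGs, 81 of 449 were called between the families, where 20.2% of all CpGs in the table were. Of these, 53 were higher in MEF-1 and 28 in MEF-2, where 11.6% of the table's CpGs were higher in MEF-1 and 8.53% higher in MEF-2. The called share was 10.2% in Myod1 (9 CpGs), 16.5% in Pax7 (35), 23.5% in Myog (4) and 25.2% in Pax3 (33). In islands 45 of 335 CpGs were called (13.4%, against 12.1% of island CpGs in the table), and in flanks 36 of 114 (31.6%, against 26.6%). The overall share was thus near that of the table and is not particular to the muscle regulators. The called differences had a median size of 43.0 points (38.6 over the called CpGs of the table), and 22 of them (27.2%, against 21.5%) exceeded 50 points.

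Pax7 differed most upstream of its start. In the 5 neighbouring CpGs from -713 to -608, the MEF-1 clonal lines were at 59.4% ± 10.1 (43.5 to 74.6%) and the MEF-2 clonal lines at 4.33% ± 3.36 (1.40 to 10.8%). The MEF-1 parental line was at 61.3% and the MEF-2 parental line at 7.88%, each within the range of its clones. A further 3 CpGs from -503 to -466 were at 54.8% ± 10.5 in MEF-1 and 3.89% ± 6.10 in MEF-2. Between these runs, the CpGs at -591 and -567 were at 0 to 21.9% in every library. Of the 10 upstream CpGs 8 were called, all higher in MEF-1. The CpG at -638 was methylated in all MEF-1 clonal lines (96.0 to 100%) and low in all MEF-2 clonal lines (0 to 10.0%), a difference of 92.4 points (adjusted p = 5.61e-08 in the quasi-binomial model). Its neighbours at -675 and -667 were at 35% to 63.3% and 40.9 to 100% in MEF-1, where line 6 was the one at 100%, and at most 3.70% in MEF-2. At -608 the MEF-1 lines spread from 45.5 to 100% and the MEF-2 lines from 0 to 46.9%.

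**Figure D2:**
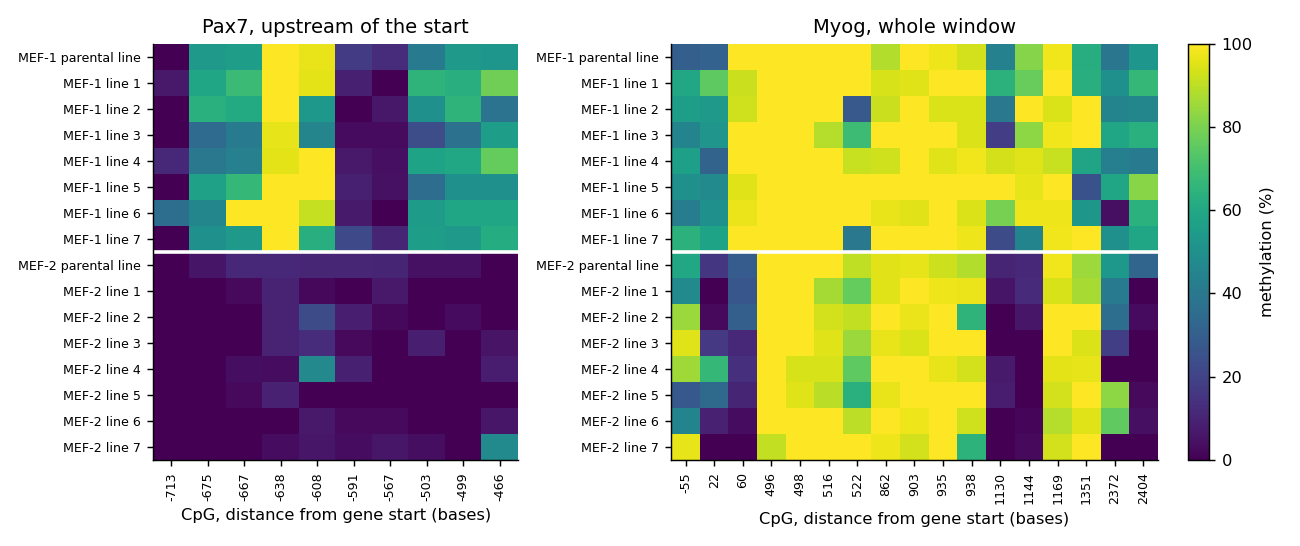
Methylation (%) of single CpGs in each library (rows; parental line first in each family, white line between families) for the 10 CpGs upstream of Pax7 (left) and the 17 CpGs of Myog (right), in order of distance from the gene start in bases, not to scale. Upstream of Pax7, the mean was at least 49.1% in MEF-1 and at most 13.9% in MEF-2 at 7 of the CpGs; in Myog, the CpGs at 60, 1130, 1144 and 2404 separated the families.

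The 54 flank CpGs of Pax7 include the 10 upstream CpGs described above, whose means were 47.4% in MEF-1 and 3.94% in MEF-2. All 54 together were at 42.9% ± 1.59 in MEF-1 and 27.2% ± 1.68 in MEF-2, without overlap (39.6 to 44.3% against 25.4 to 29.0%). How often the lines overlap in flanks of other genes was not counted. The flanks without the upstream CpGs were not tested. Over all 54 the difference was 15.7 points (adjusted p = 1.8e-05 in the quasi-binomial model). This difference exceeded in size that of 91.9% of genes, and 54.2% of gene flanks were called (34.4% higher in MEF-1, 19.8% higher in MEF-2). The 158 island CpGs were low in both families but differed in the opposite direction, with 7.13% ± 0.83 in MEF-1 and 9.43% ± 1.07 in MEF-2 (adjusted p = 0.00678 in the quasi-binomial model), where 32.0% of gene islands were called (20.4% higher in MEF-1, 11.6% higher in MEF-2). Island levels of the clonal lines overlapped, from 6.14 to 8.44% for MEF-1 and from 7.41 to 10.8% for MEF-2. The parental lines had the other order, at 6.98% (MEF-1) and 5.92% (MEF-2). The island difference rested on 1 island of intron 4: the other 121 island CpGs were at 7.74% ± 0.93 and 7.71% ± 1.20 (adjusted p = 0.794 in the same model, a comparison chosen after the data were seen). The island at the start of Pax7, from -401 to 1219, was at 9.55% ± 2.59 (MEF-1) and 9.09% ± 4.28 (MEF-2). Intron 4 holds more than 1 island, and that from 9129 to 10066 was at 8.36% ± 1.83 (MEF-1) and 9.01% ± 4.24 (MEF-2). The intron 4 island of the difference, from 11336 to 12506, was at 5.13% ± 2.01 in MEF-1 and 15.1% ± 2.98 in MEF-2. Its lines did not overlap (2.71 to 8.41% against 11.8 to 18.9%). Inside it lies the run from 11640 to 11663 printed above, which was at 5.18% ± 3.11 in MEF-1 and 36.5% ± 12.1 in MEF-2. Farther into the gene, the intronic CpG at 43295 was at 85.2% ± 20.5 in MEF-1 and 18.1% ± 19.3 in MEF-2 (adjusted p = 0.00413 in the quasi-binomial model).

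**Figure D3:**
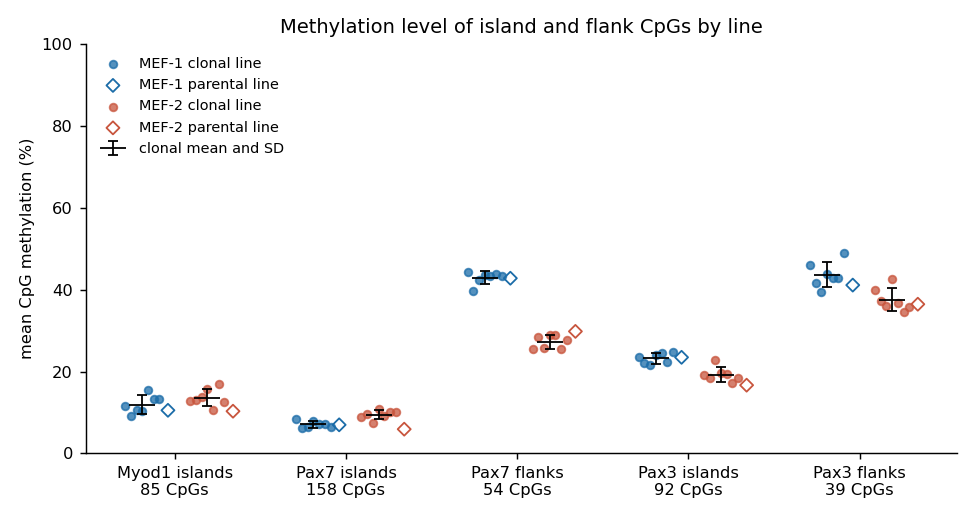
Mean CpG methylation (%) of island and flank CpGs in every library; filled points are clonal lines, open diamonds the parental lines, and bars the clonal mean and SD (n = 7). Pax7 flanks were higher in MEF-1 (42.9 against 27.2%), while Pax7 islands were low in both families (7.13 against 9.43%), a difference that rested on 1 island of intron 4.

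Pax3 showed differences in both directions within a few kilobases. Upstream, the CpGs at -441 and -432 were almost fully methylated in MEF-2 (98.4% ± 1.60 and 97.8% ± 2.88) and lower in MEF-1 (24.3% ± 16.2 and 32.0% ± 22.6). At -441 the MEF-1 lines ran from 11.5 to 60% and the MEF-2 lines from 96.2 to 100%, and the adjusted p was 6.74e-06 in the quasi-binomial model. The CpG at -339, only about 100 bases closer to the gene start, had the opposite order, with 33.9 to 60.3% in the MEF-1 lines and 1.10 to 11.4% in the MEF-2 lines. The island over the start (-194 to 891) was low in both, at 9.87% ± 2.58 in MEF-1 and 6.97% ± 1.57 in MEF-2.

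Inside Pax3, the islands were ordered differently between the families. The island from 1584 to 2090, over exon 2, was lower in MEF-1 (14.1% ± 2.97) than in MEF-2 (29.2% ± 2.50), and its printed run from 1809 to 1866 was at 13.9% ± 9.22 against 48.9% ± 10.9. The island from 3077 to 3562 was higher in MEF-1, at 22.6% ± 2.72 against 6.27% ± 3.23. That from 4514 to 4896 was also higher in MEF-1, at 75.9% ± 6.03 against 56.6% ± 5.28, and 9 of its 14 CpGs were called. In none of these 3 islands did the lines of the families overlap. They did overlap in the island over the start (6.55 to 13.46% in MEF-1 against 5.31 to 9.27% in MEF-2). The same held for the island from 972 to 1331, which had 1 measured CpG. How often the lines overlap in islands of other genes was not counted. Over all 92 island CpGs Pax3 had 23.3% ± 1.32 for MEF-1 and 19.3% ± 1.75 for MEF-2 (adjusted p = 0.000126 in the quasi-binomial model), although 1 MEF-2 line reached into the MEF-1 range. The 39 flank CpGs were at 43.6% ± 3.08 and 37.6% ± 2.72, a difference that was not called (adjusted p = 0.135 in the same model). The exact two-sided permutation p of the line levels, unadjusted, was 0.00233 for the islands and 0.00408 for the flanks. The outcome for the flanks thus depended on the test. Both outcomes of the model also turned with the definition of an island. With stricter islands the island difference was not called (adjusted p = 0.258 in the quasi-binomial model) and the flank difference was (adjusted p = 0.00149). Far inside the gene, the CpG at 76719 was at 96.6% ± 4.46 in MEF-1 and 36.3% ± 23.7 in MEF-2.

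**Figure D4:**
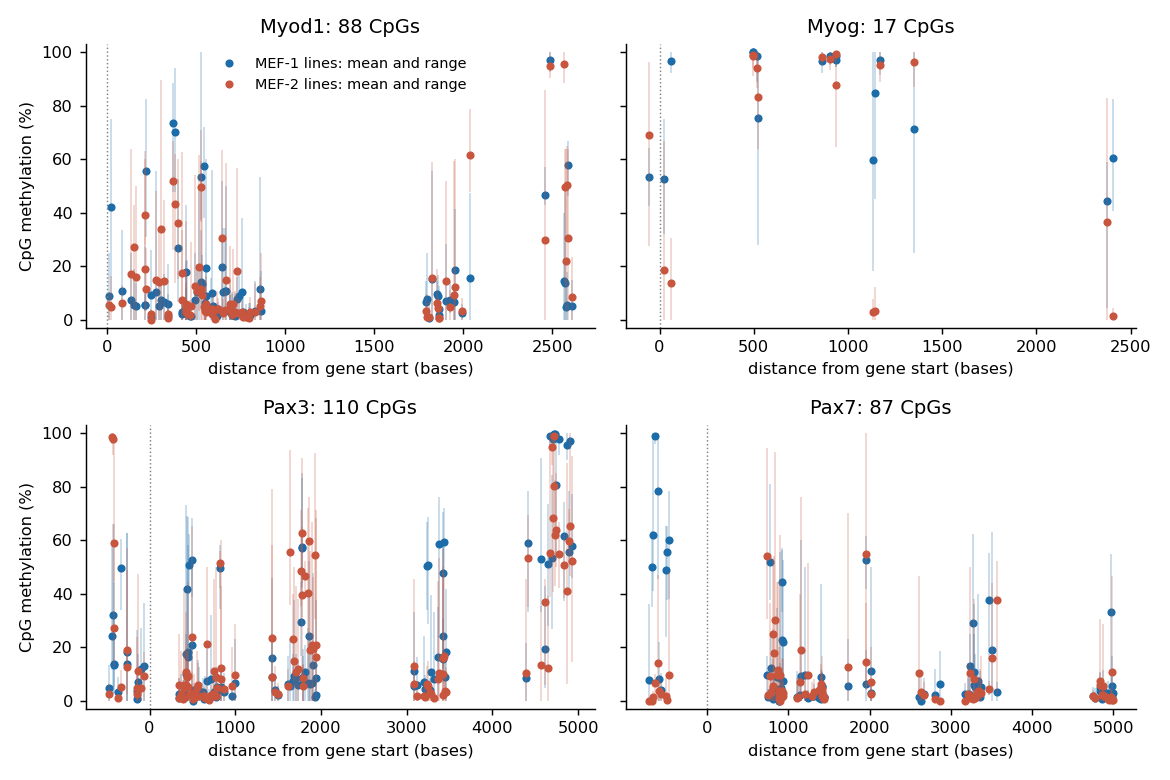
Methylation (%) of each measured CpG within 2 kb upstream and 5 kb downstream of the gene start against its distance from the start in bases (dotted line at 0); points are family means and bars the range of the 7 clonal lines. The family means part at 7 CpGs upstream of Pax7 and, in the other direction, at 3 of the 14 upstream CpGs of Pax3 (at -339 MEF-1 is the higher), while most CpGs of Myod1 were low in both families.

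In Myod1, 85 of 88 CpGs lay in islands, and most of those in the first exon were low in both families. The island from 81 to 906 was at 11.0% ± 2.38 in MEF-1 and 10.4% ± 2.86 in MEF-2. Single CpGs in it stood out from their neighbours. The CpG at 547 was at 37.8 to 72.0% in the MEF-1 clonal lines and at 0 to 10.5% in the MEF-2 clonal lines, with means of 57.5% ± 11.1 and 4.62% ± 4.23 (adjusted p = 1.22e-05 in the quasi-binomial model). The parental lines were closer there, with MEF-1 at 27.0%, below all of its clones, and MEF-2 at 5.13%. In the 3′ UTR the order was the reverse. The CpG at 2565 was at 14.3% ± 12.8 in MEF-1 and 95.4% ± 4.47 in MEF-2 (adjusted p = 1.06e-05 in the same model), and the CpG at 2036 at 15.4% ± 21.2 and 61.3% ± 10.4 (adjusted p = 0.00983). The MEF-1 and MEF-2 parental lines were at 2.63 and 87.5% at 2565. At 2036 they were at 0 and 35.7%, and the latter was below all MEF-2 clones (47.6 to 78.6%). The call at 2036 was lost without MEF-1 lines 1, 3 and 7, whose coverage was shifted around Myod1 (adjusted p = 0.0671 in the same model), and with the replicate block (adjusted p = 0.0965). The small island from 2479 to 2775, which holds the CpG at 2565, was at 28.3% ± 4.74 in MEF-1 and 50.1% ± 6.66 in MEF-2, without overlap. Reads upstream of the Myod1 start did not reach the coverage minimum. Pooled with no minimum (59 to 225 reads per library), they were methylated at 7.37 to 23.7% in MEF-1 clones and at 4.79 to 32.1% in MEF-2 clones. One line set each upper limit, and without MEF-1 line 7 and MEF-2 line 6 the highest values were 12.1 and 10.1%.

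Myog, which encodes myogenin, had no measured island CpG. At 60, in the 5′ UTR and at the end of the promoter printed above, all MEF-1 clonal lines were at 92.0 to 100% and all MEF-2 clonal lines at 0 to 30.3%. The means were 96.7% ± 3.51 and 13.7% ± 11.3 (adjusted p = 3.61e-06 in the quasi-binomial model). The CpG at 1144 in coding exon 2 was at 84.8% ± 19.5 and 3.21% ± 4.49, and that at 2404 in the 3′ UTR at 60.3% ± 13.9 and 1.36% ± 1.78. All 4 called CpGs of Myog were higher in MEF-1, whereas the 3 CpGs from 496 to 516 in coding exon 1 were at 86.7 to 100% in every library. Upstream of the start only the CpG at -55 had enough reads, at 53.4% in MEF-1 and 68.9% in MEF-2 with overlapping lines. Pooled with no coverage minimum (45 to 147 reads per library), the 2 kb upstream of Myog were methylated at 46.7 to 77.0% in MEF-1 clones and at 21.8 to 43.8% in MEF-2 clones. These ranges did not overlap, with means of 58.7% ± 10.4 and 36.5% ± 7.72 (exact two-sided permutation p = 0.000583, unadjusted). The CpGs that were covered changed from library to library, and their part in this difference was not tested.

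Myf5 and Myf6 lie next to each other on chromosome 10 and were hardly covered. The only CpG of Myf6, at -308, was methylated in all libraries (88.2 to 100%). Pooled with no minimum, the Myf6 window held 71 to 208 reads per library, methylated at 80.9% ± 3.16 in MEF-1 and 88.6% ± 3.19 in MEF-2, and the lines overlapped narrowly (exact two-sided permutation p = 0.00117, unadjusted; without MEF-2 line 4, whose coverage was shifted there, p = 0.00233). The covered CpGs of Myf6 (10 to 23 per library) changed from library to library, and their part in its difference was not tested. The Myf5 window held 11 to 65 reads per library. Its pooled level ran from 5.00 to 55.6% in MEF-1 and from 18.2 to 70% in MEF-2, so no difference was detectable at this depth (exact two-sided permutation p = 0.359, and 0.374 without MEF-2 line 4).

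Clones of the same parental line also differed from each other. The level differed by at least 50 points between clonal lines at 57 CpGs in MEF-1 (12.7%, against 11.4% in the table) and at 112 CpGs in MEF-2 (24.9%, against 17.0%). In islands the shares were 9.25% in MEF-1 (7.13% in the table) and 23.6% in MEF-2 (11.3%). In flanks they were 22.8% in MEF-1 (14.9% in the table) and 28.9% in MEF-2 (21.5%). In Pax7, 9 CpGs had at least 1 MEF-2 line at 10% or below and at least 1 at 90% or above (4.25%, against 1.22% in the table, and 5.70% of its island CpGs, against 0.843%). All 9 lay in islands of introns 1 and 4, and the line at the top was not the same at each. At 9845 line 6 was at 100% and line 4 at 4.35%, at 9673 line 1 was at 100% and line 3 at 4.35%, and at 1955 line 4 was at 100% and line 6 at 4.55%. In MEF-1 the intronic Pax3 CpG at 77124 was the 1 of the 449 with such a spread (0.223%, against 0.467% in the table), from 0% in line 6 to 96.9% in line 7.

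The fidelity score gives, out of the 14 clonal lines, the share at 0 to 10, 40 to 60 or 90 to 100%, the values open to a clone that kept the state of its founder cell. Islands held 74.6% of the 449 CpGs and 44.4% of the table's, so the zones are given apart: the mean was 0.828 in islands (0.885 in the table) and 0.770 in flanks (0.790), and 0.813 against 0.833 over all CpGs. Pax7 had the highest mean of the genes with more than 1 CpG, at 0.856, and Pax3 the lowest, at 0.751. In Pax3 68 of 131 CpGs (51.9%) and in Pax7 42 of 212 (19.8%) scored under 0.75, where 28.9% of the table did. In islands alone 46 of 92 CpGs of Pax3 and 18.35% of those of Pax7 did so, against 17.997% of the table's. Pax7 islands were thus near the table, and Pax3 islands were not. In flanks the shares were 56.4% for Pax3 and 24.1% for Pax7, against 37.6%. The difference between the genes was not tested.

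Each clonal line was then set against the library of its own parental line with Fisher's exact test at each CpG, and p was adjusted within the line over the table. Per MEF-1 line 3.15% ± 1.38 of the 449 CpGs differed, and per MEF-2 line 7.32% ± 1.87 (n = 7), while the table had 3.46% and 6.57%. These shares changed with the coverage setting. They were 6.01 and 9.91% with a minimum of 20 reads, which also left only 183 of the CpGs. With 10 reads drawn per CpG, too few for a call after adjustment over the table, they were 0 for both. The MEF-1 mean joins unlike lines: over the table, lines 1, 4 and 5 had 1.34 to 1.54% and the other 4 lines 4.54 to 5.53%, and over the regulators they had 1.11 to 2.90% and 3.79 to 4.90%. In MEF-2, 181 of 230 such calls were higher in the clonal line, and in MEF-1 68 of 99 (78.7% and 68.7%, against 54.8% and 50.9% of such calls in the table). By gene, the MEF-2 share was 94.1% for Myod1, 86.1% for Pax7 and 71.1% for Pax3, and Myog had 3 of 12 calls higher in the clonal line, of which the CpG at 2404 alone gave 7 (3 of 5 without it). The lines share 1 parental library and often the same CpG, and differences between the genes were not tested. All 7 lines were called at 2 of the CpGs in MEF-2 (0.445%, against 0.103% in the table) and at 0 in MEF-1 (0.0194% in the table). One was the Pax3 CpG at -441, at 72.4% in the MEF-2 parental line and 96.2 to 100% in its clones. The other was the Myog CpG at 2404, at 32.5% in the MEF-2 parental line and 0 to 4.17% in its clones. CpGs that were low in the parental line (under 10%) stayed low in 83.6% ± 4.17 of cases per line in MEF-1 and 84.4% ± 1.67 in MEF-2, against 92.3% and 93.5% in the table. The parental lines were sequenced once, so these comparisons rest on 1 library per family.

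Genes around the regulators in the muscle programme were counted in the same gene test, in which 44.6% of all genes were called. Of 21 tested upstream factors and cofactors, 12 were called, 8 higher in MEF-1 and 4 in MEF-2. Those furthest apart were Eya2 (9.17 points higher in MEF-1), Tcf15 (8.52) and Sim1 (7.72), and in the other direction Six2 (-17.4 points, MEF-1 minus MEF-2), Meox1 (-17.2) and Tcf21 (-8.67). Six2 and Eya2 are of families whose proteins act together upstream of myogenic genes, and Meox1 is a homeobox factor of the somite. Of 18 tested effector genes of muscle, 11 were called, 8 higher in MEF-1 and 3 in MEF-2. Chrng, a subunit of the fetal acetylcholine receptor, was 26.6 points higher in MEF-1, followed by the myosin light chain gene Mylpf (14.7) and the cadherin gene Cdh15 (14.1). The fast troponin gene Tnnt3 (-13.9), the receptor subunit gene Chrna1 (-10.4) and the skeletal actin gene Acta1 (-9.58) were lower in MEF-1. Of 9 tested fibroblast genes 2 were called, Pdgfra (10.8) and the collagen gene Col1a1 (-16.0).

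By the root mean square difference of gene levels over the 16 libraries, among 12725 genes with at least 20 CpGs, the genes most like Myog were Rab44 (2.99 points) and Krt8 (3.02). The gene most like Pax3 was Aif1l (1.31), those most like Pax7 Bloc1s6 (0.979) and Baz1b (1.04), and those most like Myod1 Hist3h2ba (1.56) and Gm3667 (1.77).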

How the data were processed

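tcBS-seq was analysed for 2 parental and 14 clonal lines (7 per family), grouped by their labels. According to the methods and processing notes, the authors trimmed reads with Trim Galore 0.6.0, aligned them to mm10 with Bismark and kept a mapping quality of at least 10. Removal of PCR duplicates is not given in the sources used here, so reads may not be independent molecules. The deposited values are counts of unmethylated and methylated reads per CpG, without normalization, and a deposited table of the series holds the CpGs that had 10 or more reads in each of the 16 libraries. Chromosomes 12, 18, 19, X and Y are not in it. Its 2 columns per sample of coverage and percentage were not used. Deposited fidelity scores were recomputed from the counts.

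The members and gene lists were chosen with earlier results of these data known. Islands were merged windows of 200 bases with GC of at least 50% and observed over expected CpGs of at least 0.6 in GRCm38. The limits held for each window, and a merged island as a whole could fall below them. In Pax3, GC was 49.4% in the island from 3077 and 49.3% in that from 4514. The ratio was 0.555 in the Pax3 island from 1584 and 0.5745 in the Myod1 island from 2479. Families were compared by a quasi-binomial logistic model (F-test, dispersion not below 1) for CpGs and, on summed reads, for windows, islands and flanks with at least 5 CpGs. Adjusted p-values follow Benjamini and Hochberg over all CpGs or genes, with calls under 0.05. Each of the 6 regulators was named, with up to 3 called CpGs of largest difference, its longest run of called CpGs (at least 3, at most 500 bases apart), up to 3 genes per direction of each list and the 2 nearest other genes (1 is not reported here); other CpGs were chosen after their values were seen. Scripts ran in Python 3.11.15 (NumPy 2.4.6, SciPy 1.17.1, pandas 2.3.3) and R 4.3.3 (limma 3.58.1). The models were tested on simulated data, where the CpG test recovered most large changes when the changed share of CpGs was near that called in the table, but only a minority of them when few CpGs changed and few of the smaller changes in either case. The first simulated design, with few changed CpGs, was replaced for that reason. Unchanged CpGs with levels near 0 or 100% were called somewhat too often when clones varied strongly.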

Additional observations from a re-analysis of the deposited data

Results flagged for a closer look

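In 80 groups of 7 clonal lines (levels of windows, islands, flanks, runs and named CpGs), 11 lines stood apart from the other 6 of their family by more than Dixon's 95% limit. Chance gives about 1 in 20 only for independent groups of normally spread values. Windows here share CpGs with their islands, flanks, runs and named CpGs, so the count cannot be set against that rate. Among window and flank levels, the lines apart were MEF-2 line 6 at the single Myf6 CpG (95.2%, the others at 100%) and MEF-1 line 2 in the Pax7 flanks (39.6%, the nearest line at 42.5%). The Myf6 CpG had only 14 to 32 reads per library. Among single CpGs, MEF-1 line 7 was at 45.0% at the Myog CpG at 1144 (nearest 76.7%), MEF-1 line 1 at 60% at the Pax3 CpG at -441 (nearest 22.4%) and MEF-2 line 4 at 91.9% at the Pax3 CpG at -432 (nearest 97.3%). MEF-1 line 3 was at 87.5% at the Pax3 CpG at 76719 (nearest 95.2%), and MEF-1 line 2 at 41.2% at the Pax7 CpG at 43295 (nearest 78.9%). In the Pax7 run from -503 to -466, MEF-2 line 7 was at 17.2% (nearest 4.53%). Among islands, MEF-1 line 4 was at 20.3% in the Pax3 island over exon 2 (nearest 15.1%), MEF-1 line 2 at 9.96% in the Pax7 island from 1236 to 2583 (nearest 7.00%) and MEF-2 line 4 at 20.8% in the Myod1 island from 1630 to 2059 (nearest 10.7%).

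The Myog window moved in opposite directions from the parental line in the families. All 7 MEF-1 clonal lines were above their parental line, by 3.88 points on average, and all 7 MEF-2 clonal lines were below theirs (-3.86 points). The difference was not tested, because each parental line was sequenced once.

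Reads below the coverage minimum carried methylation in Myf5 and Myf6, which the comparisons could not use. The pooled level differed by -8.72 points for Myf5 and -7.70 points for Myf6 (MEF-1 minus MEF-2 clonal lines), with the ranges, tests and limits given above.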

How the results depend on the processing

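The count of 81 called CpGs became 118 with a minimum of 5 reads (of 709 CpGs), 68 with 10 reads drawn per CpG, 95 with limma on arcsine square root levels and 66 without MEF-1 lines 1, 4 and 5 (the lines with the fewest calls against their parental line over the table), and 32 with a minimum of 20 reads, where 183 of the 449 CpGs remained to be tested. Leaving out each clonal line in turn gave 76 to 83. The differences of Myog, Pax3 and Myod1 windows kept their direction and their side of the threshold in all these settings. The Pax7 window did not: its adjusted p was 0.235 with a minimum of 20 reads (3.00 points), 0.262 with 5 reads (0.340 points), 0.103 with the replicate block (2.28 points) and 0.156 without MEF-1 lines 1, 4 and 5 (1.72 points), and 0.0503 to 0.0590 without MEF-1 line 3, 4 or 6 or MEF-2 line 1, with differences from 1.97 to 2.55 points over all such omissions. With stricter islands (500 bases, GC 55%, ratio 0.65), the Myod1 island difference reversed to 1.15 points (not called in either setting), the Pax3 island difference of 2.89 points was no longer called (adjusted p = 0.258), and the Pax3 flank difference of 5.36 points was called (adjusted p = 0.00149). The CpG at 2036 of Myod1 lost its call with the replicate block (adjusted p = 0.0965) and without the lines of shifted coverage (adjusted p = 0.0671). Without the intron 4 island from 11336 to 12506, the Pax7 island difference was 0.0282 points (adjusted p = 0.794), the reverse of its direction over all islands. The causes were not tested.

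Line numbers are shared by the families only as numbers: the correlation of deviations between same-numbered lines ran from -0.0043 to 0.0035, and no line correlated best with its own number. With the replicate block 76 of the 449 CpGs were called, and 17.0% of all CpGs in the table.

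Levels moved with the coverage minimum, which sets the CpGs that enter, and with pooling of reads, which weights the same CpGs by their reads. With a minimum of 20 reads they were 89.3% for Myog in MEF-1, 36.7 and 27.6% for Pax3 and 14.5 and 11.5% for Pax7 (MEF-1 and MEF-2), with 5 reads 84.5 and 71.4% for Myog, 22.5% for Pax3 in MEF-2 and 14.3% for Pax7 in MEF-1, and with pooled reads 59.4% for Myog in MEF-2 and 32.9 and 26.3% for Pax3. With a minimum of 20 reads, 6.01% of CpGs differed from the parental library for MEF-1 and 9.91% for MEF-2, and 0 did for both with 10 reads, too few for a call after adjustment over the table. Mean fidelity was 0.965 with windows of 0 to 20, 30 to 70 and 80 to 100%. Intervals and tests cover counting error and the spread between clones only.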
